A study of Mus musculus with 27 samples.

Results

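Junctions from CH12F3 cells lacking DNA ligase 4 (Ligase4-/-) were set against junctions from CH12F3 cells lacking XLF (XLF-/-). The comparison took 12 of the 27 samples, 6 of each genotype, chosen by the genotype in the labels and kept apart by clone throughout. Each genotype had 2 clones with 3 libraries each. CH12F3 is a mouse B cell lymphoma line that switches from IgM to IgA in culture. Both XLF-/- clones and Ligase4-/- clone 1 were made from the parental line, and Ligase4-/- clone 2 came from another laboratory. All cells were stimulated for 72 h with 20 ng/mL IL-4, an antibody against CD40 and 1 ng/mL TGFβ, and sonicated genomic DNA was taken after that time with AflII used for blocking. The wild-type line (WT, 1 clone), PAXX-/- (2 clones) and XLF-/-PAXX-/- (2 clones) were used here only as a scale. No sample was unstimulated, so switching-independent junctions could not be subtracted.

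Class switch recombination replaces the constant region of an antibody by joining double-strand breaks made in 2 switch regions, here Sμ and Sα. Classical end joining seals such breaks: Ku binds the ends, and DNA ligase 4, held by XRCC4, makes the phosphodiester bonds. XLF binds XRCC4 and helps to bridge and align the ends, and ligation can proceed without it in many settings. Joins made without this pathway tend to use short stretches of sequence shared by both ends, called microhomology. A direct join has no shared and no extra base, and an insertion has bases that the deposited alignment placed at neither end.

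LAM-HTGTS, a sequencing method for translocations built on linear amplification, primes from a fixed bait and reads the sequence (the prey) that the bait has joined. The bait lay 5′ of Sμ on the minus strand of chromosome 12 (mm9). Its consensus is shown because every position given for a bait end counts from its first base, chr12:114664909. Capitals mark AGCT, the palindromic motif that activation-induced deaminase (AID) prefers, which occurs 2 times.
bait, chr12:114664780-114664909, minus strand: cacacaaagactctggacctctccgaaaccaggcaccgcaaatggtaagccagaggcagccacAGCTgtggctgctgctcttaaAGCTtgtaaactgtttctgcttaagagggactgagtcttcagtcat

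The 12 libraries held 96981 of the series' 193201 junctions, 59699 from Ligase4-/- and 37282 from XLF-/-. Libraries ranged from 4370 to 14524 junctions, and from 1703 to 6332 in the Sα window. Lines that repeated another line of the same library made up 0.499% to 1.27%. The Ligase4-/- libraries came from 4 sequencing runs and the XLF-/- libraries from 2, and the genotypes shared 0 runs. Genotype and sequencing run cannot be told apart here. The series' design text calls the 3 samples of a clone biological replicates, but only 2 clones stand behind each genotype. With 2 clones against 2 the smallest p an exact test can give is 0.333, so values by clone are given as a description.

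A few exact sequences illustrate the classes of join, and they were picked by recurrence, not as typical joins. Shown first are Sα joins found in most of the 12 libraries, with 20 bases to each side, bait on the left and prey on the right, and the shared bases in capitals. The first 2 lines were each found in 12 of the 12 libraries and the last in 11. The first and the last share 8 and 7 bases, while joins with at least 6 made up 2.98% of Sα joins in Ligase4-/- and 3.39% in XLF-/-. The join at chr12:114498448 was found in all 27 libraries, is taken up under Other observations, and its origin was not tested.
Sα, chr12:114498571, bait base 70: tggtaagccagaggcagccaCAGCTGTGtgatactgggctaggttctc
Sα, chr12:114498448, bait base 44: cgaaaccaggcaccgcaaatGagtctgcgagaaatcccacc
Sα, chr12:114498898, bait base 53: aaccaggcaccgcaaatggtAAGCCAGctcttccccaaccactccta
Of 28788 distinct Sα joins, 23327 were found in 1 library and 30 in at least 10. A direct join and 2 joins with inserted bases (capitals) show the other classes.
Sα direct, chr12:114498226, bait base 35: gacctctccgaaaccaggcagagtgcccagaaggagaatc
Sα insertion, chr12:114497104, bait base 61: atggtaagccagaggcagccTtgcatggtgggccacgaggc
Sα insertion, chr12:114497208, bait base 46: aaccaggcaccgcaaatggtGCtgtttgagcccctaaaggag
The direct join was seen 6 times, in 3 libraries of Ligase4-/- and in no XLF-/- library. The first insertion was seen in 3 Ligase4-/- junctions and the second in 3 XLF-/- junctions. Which clones held these joins was not recorded, so they are examples and no measure of a genotype.

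Some joins that the alignment gives as insertions carried the same bases before the prey again and again. The 2 joins below are shown for this, with the bases that the alignment left out of bait and prey in capitals. The prey of the first, read from chr12:114500098, runs through GGTGAA directly before the place where the prey of the second begins.
Sα, chr12:114500098, bait base 50: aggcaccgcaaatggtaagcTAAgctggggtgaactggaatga
Sα, chr12:114500087, bait base 45: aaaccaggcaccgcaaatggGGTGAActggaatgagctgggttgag
Over all 27 libraries, 366 of 384 joins at chr12:114500098 with at least 3 such bases ended in TAA, from 73 bait ends, and 220 of 253 at chr12:114500087 ended in GAA, from 70. The bases left out of the join shown at chr12:114500087 are thus those that the prey of the first join carries there. The consensus of this stretch, printed further below, has GCTGAG at that place, and the difference was not tested. For the other joins only the last 3 such bases were compared, and other positions were not tested. At 194 prey positions with at least 10 joins, over 50% of the joins were given as insertions. They held 1029 of the 7661 Sα insertion joins of the 12 libraries, and results on Sα insertions are given below with and without these positions.

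Where the bait had joined was measured as a share of all junctions outside a window of 10 kb to each side of the bait. Sα was taken as the 20 kb around the densest kilobase on chromosome 12 at least 50 kb from the bait (chr12:114489501-114509500). In all, 48 measures of destination, junction sequence, position and orientation were compared by an exact two-sided permutation test over 6 against 6 libraries (924 splits, smallest p 0.00216), with Benjamini-Hochberg adjustment over the 48. After adjustment 0 of the 48 passed 0.05, and 9 had an unadjusted p under 0.05. A measure standing alone at the smallest p could not pass an adjustment over 48, however large its difference. The libraries of the 2 genotypes did not overlap in 2 measures, and the clones of one genotype lay wholly to one side of the clones of the other in 19.

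Ligase4-/- and XLF-/- libraries overlapped in the share of junctions that went to Sα. The share was 46.0%, 56.8% and 60.4% in the libraries of Ligase4-/- clone 1, and 61.7%, 45.9% and 56.7% in those of clone 2. It was 67.0%, 73.8% and 71.1% in XLF-/- clone 1, and 45.2%, 58.5% and 53.9% in clone 2. XLF-/- clone 1 thus lay above every other library, while XLF-/- clone 2 overlapped both Ligase4-/- clones. The genotype means were 54.6% ± 6.96 (SD, n = 6) and 61.6% ± 11 (SD, n = 6), a difference of -7.00 percentage points (95% interval -19.0 to 4.89, exact permutation p = 0.221, adjusted p = 0.505). WT averaged 70.9%. Without XLF-/- clone 1 the difference turned to 2.04 points.

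The gap between the 2 XLF-/- clones lay mostly in junctions to other chromosomes. These made up 20.2% on average in XLF-/- clone 1 and 37.7% in clone 2, against 32.2% and 34.8% in Ligase4-/- clones 1 and 2 and 24.7% in WT. The genotype difference was 4.53 points (95% interval -7.42 to 16.8, exact permutation p = 0.418) and turned to -4.2 points without XLF-/- clone 1. Across 19 chromosomes other than 12, 0 passed after adjustment (0% of those tested), and chromosome 14 alone had an unadjusted p under 0.05. Its share of junctions to other chromosomes was 6.90% ± 1.66 in Ligase4-/- and 10.2% ± 2.50 in XLF-/- (SD, n = 6 each, exact permutation p = 0.0260, adjusted p = 0.476), with XLF-/- clone 1 at 12.3% and the other 3 clones between 5.47% and 8.33%.

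**Figure D1:**
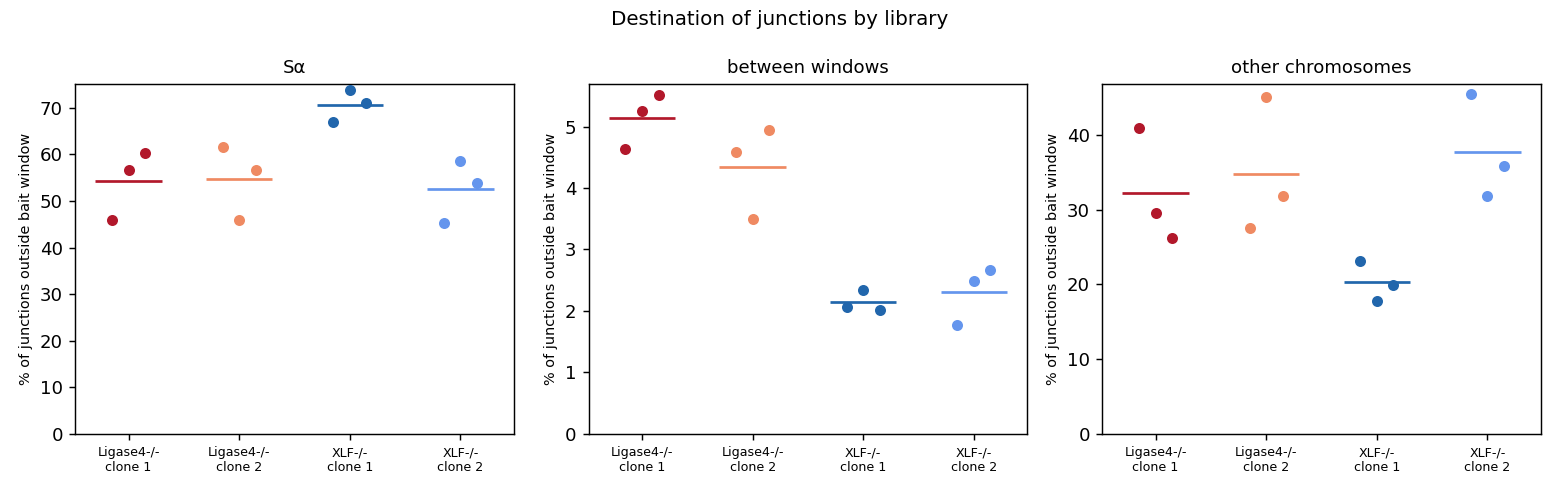
Share of junctions outside the bait window (percent, vertical axis) that fell in the Sα window, between the windows and on other chromosomes, for the 4 clones. Points are libraries and bars are clone means of 3 libraries; all 6 Ligase4-/- libraries lie above all 6 XLF-/- libraries for the stretch between the windows (3.49% to 5.51% against 1.78% to 2.66%).

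Junctions between the bait and Sα windows separated the genotypes. This stretch runs from 10 kb past the bait to the Sα window. RefSeq orders the constant genes from Ighm to Igha as Ighm, Ighd, Ighg3, Ighg1, Ighg2b, Ighg2c, Ighe and Igha (GRCm38.p6, used for gene order only). The share was 4.63%, 5.25% and 5.51% in Ligase4-/- clone 1 and 4.58%, 3.49% and 4.95% in clone 2. It was 2.07%, 2.34% and 2.02% in XLF-/- clone 1 and 1.78%, 2.48% and 2.66% in clone 2. No Ligase4-/- library was as low as any XLF-/- library. The means were 4.74% ± 0.706 and 2.22% ± 0.326 (SD, n = 6 each), 2.13-fold, with a difference of 2.51 points (95% interval 1.80 to 3.17). The exact permutation p of 0.00216 was the smallest possible, and the adjusted p was 0.0519. WT averaged 1.41%, PAXX-/- 0.385% and 0.608%, and XLF-/-PAXX-/- 2.22% and 3.28%.

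To see where in that stretch the difference lay, 10 kb windows were tested one by one, a step added after the total had been seen. Of 15 windows, 4 passed after adjustment over the 15 (26.7%), all higher in Ligase4-/-, and 6 had an unadjusted p under 0.05. Over 15 tests a single window at the smallest p can pass, unlike a single measure over the 48. The counts that passed therefore cannot be set side by side. The largest difference was at chr12:114600001-114610000, with 1.92% ± 0.322 of junctions in Ligase4-/- and 0.285% ± 0.251 in XLF-/- (SD, n = 6 each, exact permutation p = 0.00216, adjusted p = 0.0108). Its libraries ran from 1.38% to 2.32% in Ligase4-/- and from 0.0835% to 0.727% in XLF-/-, without overlap. The neighbouring window chr12:114590001-114600000 held 0.475% ± 0.126 and 0.168% ± 0.108 (exact permutation p = 0.00216, adjusted p = 0.0108), also without overlap.

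The other windows that passed held fewer junctions. At chr12:114560001-114570000 there were 42 junctions in all, 0.0758% ± 0.0175 in Ligase4-/- and 0.0329% ± 0.0280 in XLF-/- (exact permutation p = 0.00216, adjusted p = 0.0108). At chr12:114550001-114560000 the shares were 0.481% ± 0.239 and 0.227% ± 0.0729 (exact permutation p = 0.0130, adjusted p = 0.0487), and the libraries overlapped. In that window Ligase4-/- clone 1 averaged 0.640%, Ligase4-/- clone 2 0.322%, and the XLF-/- clones 0.220% and 0.233%. Without Ligase4-/- clone 1, XLF-/- clone 1 or XLF-/- clone 2, 0 windows passed, where 6 libraries against 3 give an exact p no smaller than 0.0119. Without Ligase4-/- clone 2 the same limit of 0.0119 holds and 5 passed, so the count depended on which clone was left out. Without library 3 of Ligase4-/- clone 1, 2 passed.

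**Figure D2:**
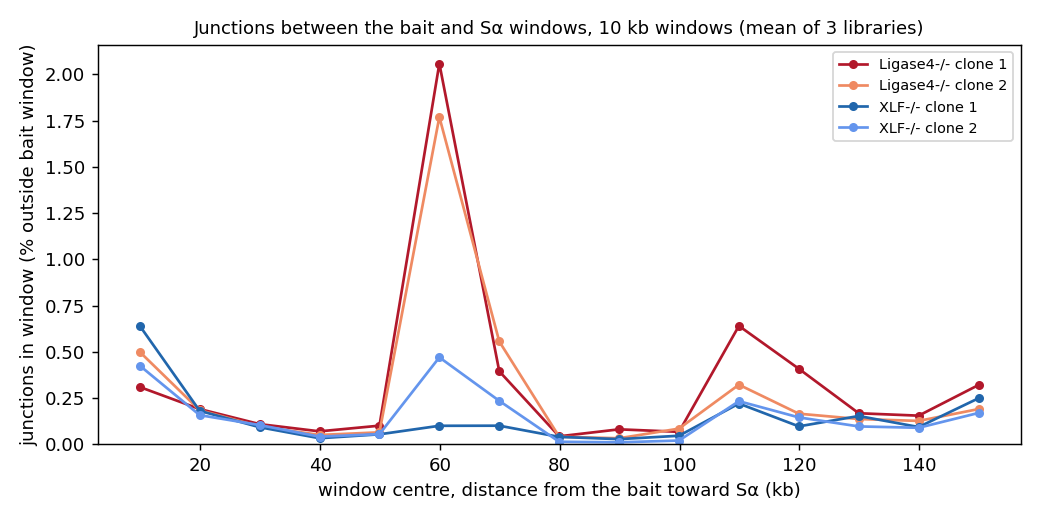
Mean share of junctions outside the bait window (percent, vertical axis) in 10 kb windows between the bait and Sα windows, against the distance of the window centre from the bait in kb, 1 line per clone (mean of 3 libraries). Both Ligase4-/- clones peak in the window with 1.92% on average; XLF-/- clone 2 has a lower peak (0.470%) and XLF-/- clone 1 has none (0.0998%).

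The adjoining windows with the largest differences (chr12:114590001-114610000, 20 kb) were then described together. The region held 695 junctions in Ligase4-/- clone 1, 351 in clone 2, 30 in XLF-/- clone 1 and 75 in clone 2. Its share was 2.23%, 2.44% and 2.69% in Ligase4-/- clone 1 and 2.50%, 1.77% and 2.70% in clone 2. It was 0.250%, 0.223% and 0.128% in XLF-/- clone 1 and 0.420%, 0.651% and 1.04% in clone 2. The means were 2.39% ± 0.350 and 0.452% ± 0.343 (SD, n = 6 each), 5.28-fold. Since the region was chosen by this difference, no test is given. Per 100 Sα junctions the values were 4.38 ± 0.387 and 0.805 ± 0.667. The WT libraries had shares of 0.63%, 0.67% and 0.88%, above every library of XLF-/- clone 1. Of the junctions between the windows, the region took 50.6% ± 3.42 in Ligase4-/- and 19.5% ± 12.5 in XLF-/-. That proportion was 46%, 50% and 58% in the WT libraries. It ran from 37.5% to 77.8% in PAXX-/- libraries and from 14.1% to 25.6% in XLF-/-PAXX-/- libraries.

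Of the region's junctions, 683 of 695 in Ligase4-/- clone 1 and 347 of 351 in clone 2 were distinct. The densest kilobase was chr12:114602001-114603000 in both Ligase4-/- clones (187 and 108 junctions), in XLF-/- clone 2 (18) and in WT (32). In XLF-/- clone 1 that kilobase held 4 junctions and no kilobase of the region held more than 4. Among the 21 libraries of the other genotypes, which came from other runs than Ligase4-/-, the region's share ran from 0.128% to 1.04%. The 6 Ligase4-/- libraries, from 4 runs, ran from 1.77% to 2.70%. Without the region, the share between the windows was 2.35% ± 0.428 in Ligase4-/- and 1.77% ± 0.259 in XLF-/- (difference 0.575 points, 95% interval 0.118 to 1.02, exact permutation p = 0.0217, adjusted p = 0.0758 over the 7 measures tested for this region).

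**Figure D3:**
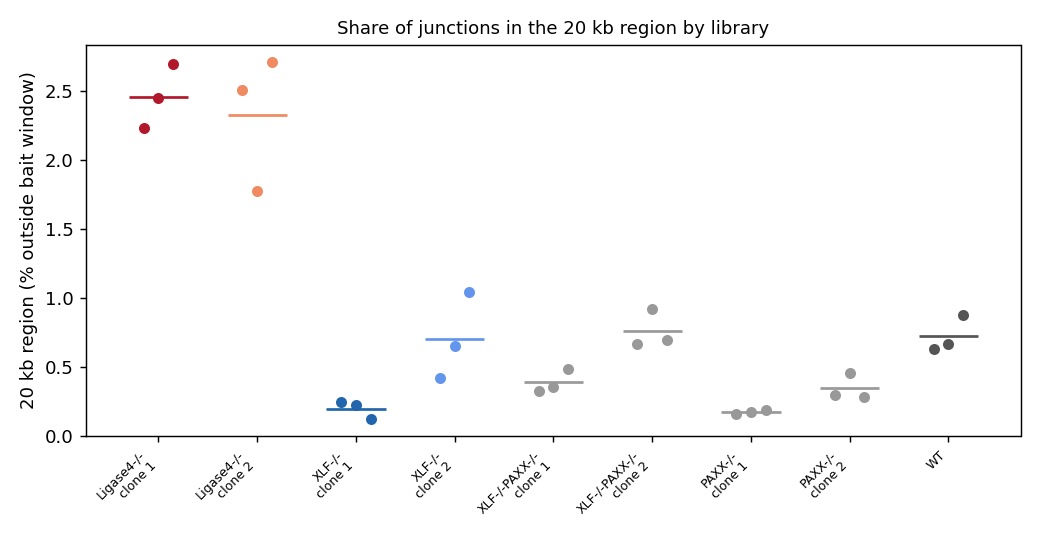
Share of junctions outside the bait window (percent, vertical axis) in the 20 kb region, by library, for all 9 clones of the series. Points are libraries and bars are clone means; the 6 Ligase4-/- libraries lie between 1.77% and 2.70%, and the 21 others between 0.128% and 1.04%.

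The sequence of the region's densest kilobase could be rebuilt from the prey bases of the reads and is printed to show what the bait had joined there. It is a consensus over reads, with a median of 30.0 reads per base and at least 90.5% of reads carrying the printed base at every position. Capitals mark AGCT, which reads the same on both strands and was counted without overlap.
region, chr12:114602801-114603000, minus strand: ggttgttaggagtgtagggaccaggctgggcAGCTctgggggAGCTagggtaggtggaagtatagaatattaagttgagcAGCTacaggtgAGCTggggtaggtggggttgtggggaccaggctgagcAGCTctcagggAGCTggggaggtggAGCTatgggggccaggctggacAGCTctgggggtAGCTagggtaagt
Sα, chr12:114500001-114500200, minus strand: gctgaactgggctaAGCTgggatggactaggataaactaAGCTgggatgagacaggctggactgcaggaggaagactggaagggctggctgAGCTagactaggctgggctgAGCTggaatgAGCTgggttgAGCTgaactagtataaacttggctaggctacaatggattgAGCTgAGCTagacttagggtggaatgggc
The region's stretch holds AGCT 9 times and the Sα stretch, shown for comparison, 8 times. In the Sα stretch the printed base was carried by 62.1% of reads at the least uniform position. Of 15 stretches of 200 bases rebuilt whole in the region, 14 hold AGCT, with 5.33 per stretch. Of 29 in the Sα core, 25 hold it, with 4.03 per stretch. No mm9 annotation was used, so the region is named by its position only.

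The joins of the region are shown by 3 that were found in more than 1 library, with shared bases in capitals.
region, chr12:114601876, deletional: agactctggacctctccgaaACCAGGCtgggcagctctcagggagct
region, chr12:114602798, deletional: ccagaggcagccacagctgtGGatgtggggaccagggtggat
region, chr12:114602050, inversional: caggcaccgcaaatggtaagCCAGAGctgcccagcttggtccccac
Microhomology was present in 77.8% ± 6.33 of the region's joins in Ligase4-/- and 72.8% ± 6.82 in XLF-/- (exact permutation p = 0.255), and its mean length was 3.35 ± 0.174 and 3.11 ± 0.588 bases (exact permutation p = 0.446). A deletional join keeps the chromosome's order and loses the DNA between, and an inversional join turns the prey around. The deletional share in the region was 68.6% ± 8.32 in Ligase4-/- and 84.0% ± 10.2 in XLF-/- (SD, n = 6 each), a difference of -15.4 points (95% interval -27.7 to -3.24, exact permutation p = 0.0173, adjusted p = 0.0758). The XLF-/- values rest on 5 to 33 junctions per library, the Ligase4-/- values on 100 to 282.

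At Sα itself the joins of both genotypes were dominated by microhomology. Direct joins made up 6.0% and 6.54% in Ligase4-/- clones 1 and 2 and 6.44% and 6.06% in XLF-/- clones 1 and 2, against 18.4% in WT. The genotype means were 6.27% ± 0.991 and 6.25% ± 0.317 (SD, n = 6 each), a difference of 0.0231 points (95% interval -0.729 to 0.982, exact permutation p = 0.980). Its sign turned under several alternatives, among them leaving out library 2 of Ligase4-/- clone 2, which gave -0.364 points. The mean length of the shared stretch was 2.85 ± 0.0464 and 2.87 ± 0.0460 bases (difference -0.0272, 95% interval -0.0908 to 0.0350, exact permutation p = 0.297), and 2.33 bases in WT.

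Within that common pattern Ligase4-/- joins had somewhat less microhomology and somewhat more inserted bases, and neither difference passed after adjustment. Every join is direct, has microhomology or has an insertion, and direct joins hardly differed. The differences in microhomology and in insertions are therefore the same difference seen from both sides. The microhomology share was 69.8%, 73.6% and 72.3% in Ligase4-/- clone 1, 77.9%, 72.4% and 75.3% in clone 2, 74.5%, 77.9% and 76.3% in XLF-/- clone 1, and 77.1%, 75.7% and 77.5% in clone 2. The libraries overlapped, with library 1 of Ligase4-/- clone 2 as high as any XLF-/- library. The difference of the means was -2.95 points (95% interval -5.62 to -0.164, exact permutation p = 0.0455, adjusted p = 0.242). It was -1.31 points without Ligase4-/- clone 1 and -4.59 points without Ligase4-/- clone 2. WT had microhomology in 54.3% of Sα joins. Without the 194 positions above the difference was -3.19 points (exact permutation p = 0.0455), and WT had 60.1%.

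Joins with exactly 3 shared bases were the other measure without overlap. They made up 19.0% ± 0.245 of Sα joins in Ligase4-/- (18.62% to 19.25%) and 20.1% ± 0.873 in XLF-/- (19.29% to 21.55%), a difference of -1.14 points (95% interval -2.01 to -0.373, exact permutation p = 0.00216, adjusted p = 0.0519). The ranges nearly touched, so the lack of overlap was narrow. Without the 194 positions the difference was -1.21 points, with an exact permutation p of 0.00433 and an adjusted p of 0.104. The other lengths overlapped. Joins with 2 shared bases, the commonest length, made up 23.2% ± 1.79 and 24.5% ± 0.612, and those with at least 6 made up 2.98% ± 0.307 and 3.39% ± 0.356.

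Insertions were found in 22.1% and 18.2% of Sα joins of Ligase4-/- clones 1 and 2, and in 17.3% and 17.2% of those of XLF-/- clones 1 and 2, with 27.4% in WT. The difference was 2.92 points (95% interval 0.148 to 5.57, exact permutation p = 0.0346, adjusted p = 0.242). It was 1.01 points without Ligase4-/- clone 1 and 4.84 points without Ligase4-/- clone 2. Without the 194 positions insertions made up 20.5% and 16.2% in Ligase4-/- clones 1 and 2, 15.5% and 14.8% in XLF-/- clones 1 and 2, and 21.1% in WT (difference 3.19 points, exact permutation p = 0.0368, adjusted p = 0.242). Insertions of a single base made up 5.33% ± 0.614 and 4.2% ± 0.535 (difference 1.12 points, exact permutation p = 0.0130, adjusted p = 0.125), against 9.87% in WT. Among them A and T were the commonest inserted bases in both genotypes. A was 35.0% ± 2.97 in Ligase4-/- and 36.4% ± 4.64 in XLF-/-, and T was 34.0% ± 3.34 and 35.2% ± 7.40, with no base differing past the spread between libraries (exact permutation p from 0.210 to 0.875 over the 4 bases). These base shares were not recomputed without the 194 positions.

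**Figure D4:**
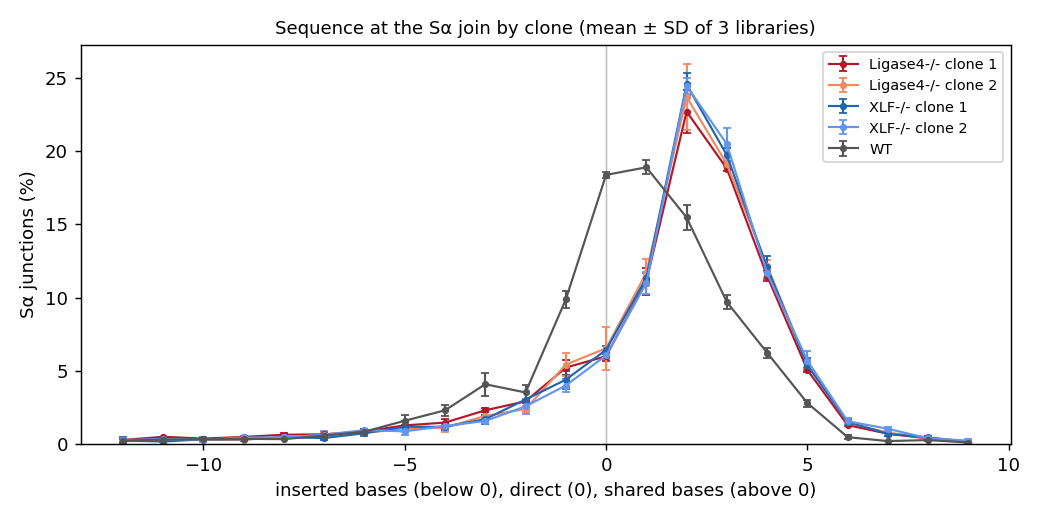
Share of Sα joins (percent, vertical axis) by the number of inserted bases (below 0), direct joins (0) and shared bases (above 0), 1 line per clone with WT in grey; points are means of 3 libraries and bars are SD. The 4 mutant clones peak at 2 shared bases, with direct joins between 6.0% and 6.54%, while WT has 18.4% direct joins.

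Which sequences were shared was tested one by one. Of 63 microhomology sequences of 2 to 4 bases with at least 50 junctions, 0 passed after adjustment (0% of those tested) and 3 had an unadjusted p under 0.05. Over 63 tests a sequence standing alone at the smallest possible p could not pass. The commonest, GC, was 9.0% ± 0.400 of the joins with microhomology of that length range in Ligase4-/- and 9.92% ± 0.724 in XLF-/- (SD, n = 6 each, exact permutation p = 0.0173, adjusted p = 0.364).

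No bin of positions within Sα passed after adjustment, though the test could not have called a single bin. The core, the shortest interval holding 90% of Sα joins when all clones weigh alike, was chr12:114496668-114502828. Joins outside it made up 11.5% and 12.9% in Ligase4-/- clones 1 and 2 and 13.4% and 12.4% in XLF-/- clones 1 and 2, against 3.37% in WT (difference -0.721 points, 95% interval -2.75 to 1.29, exact permutation p = 0.407). Of 63 bins of 500 bp and one orientation, 0 passed after adjustment (0% of those tested) and 5 had an unadjusted p under 0.05. A bin standing alone at the smallest possible p could not pass over 63 tests. The bin with the most deletional joins, chr12:114500001-114500500, split the Ligase4-/- clones. It held 20.6% and 10.8% of deletional joins in Ligase4-/- clones 1 and 2, and 12.6% and 13.5% in XLF-/- clones 1 and 2. Of inversional joins it held 16% and 5.7% in Ligase4-/- clones 1 and 2, and 5.7% and 6.7% in XLF-/- clones 1 and 2. Deletional joins made up 83.8% and 86.1% in Ligase4-/- and 84.8% and 88.2% in XLF-/-, against 95.3% in WT (difference -1.56 points, 95% interval -4.23 to 0.967, exact permutation p = 0.210). Joins up to 100 kb past Sα were 1.93% ± 0.358 in Ligase4-/- and 2.56% ± 0.417 in XLF-/- (difference -0.635 points, exact permutation p = 0.0108, adjusted p = 0.125), and 0.620% in WT.

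Outside the core, joins with microhomology shared more bases than inside it. The excess was 0.303 and 0.201 bases in Ligase4-/- clones 1 and 2 and 0.147 and 0.0990 bases in XLF-/- clones 1 and 2 (difference of the means 0.129 bases, 95% interval 0.0141 to 0.248, exact permutation p = 0.0368, adjusted p = 0.242). With bait ends before position 56 only, that difference turned to -0.0332 bases.

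The ends that had been joined were set against AGCT. On the bait, 14.6% ± 0.650 of Sα joins of Ligase4-/- and 14.5% ± 1.34 of XLF-/- ended in an AGCT (difference 0.0825 points, 95% interval -1.25 to 1.36, exact permutation p = 0.892), against 18.20% in WT. The other mutants did not all lie below WT, with 15.55% and 18.19% in PAXX-/- clones 1 and 2 and 19.45% in XLF-/-PAXX-/- clone 1. Of 97 bait positions, 0 passed after adjustment (0% of those tested) and 10 had an unadjusted p under 0.05. A position standing alone at the smallest possible p could not pass over 97 tests. At each of the last positions tested, 110 to 127, the mean share was lower in Ligase4-/-, while the sign varied at earlier positions. Joins there were few. The 12 libraries held 176 at position 108, 30 at position 109, and from 21 to 119 at each of positions 110 to 127. At position 117 the mean share was 0.106% in Ligase4-/- against 0.256% in XLF-/- (exact permutation p = 0.0108, adjusted p = 0.262). How the blocking with AflII bears on bait ends this far was not tested. The cause was not tested. On the prey side of the Sα core, 11.6% ± 1.29 and 12% ± 0.683 of joins began in an AGCT (difference -0.439 points, 95% interval -1.77 to 0.874, exact permutation p = 0.468), while 8.96% of the rebuilt core's bases lie in that motif. WT had 21.9% of such joins, PAXX-/- clone 1 20.4% and PAXX-/- clone 2 17.7%, and the XLF-/-PAXX-/- clones had 10.1% and 11.2%. In XLF-/- clone 1 a substitution, G77A counted from bait base 1, was carried by 47.6% of the 4996 reads that cover the base, and no substitution reached 1% in the other 3 clones.

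Joins within 10 kb of the bait made up 26.5% and 28.8% of all junctions in Ligase4-/- clones 1 and 2 and 33.2% and 28.3% in XLF-/- clones 1 and 2 (difference -3.08 points, 95% interval -6.57 to 0.226, exact permutation p = 0.0736). Direct joins were 6.68% ± 1.10 and 7.48% ± 0.531 of them, and 20.1% in WT. Insertions were 25.2% ± 1.71 in Ligase4-/- and 21.5% ± 2.12 in XLF-/- (difference 3.73 points, 95% interval 1.2 to 6.07, exact permutation p = 0.0130, adjusted p = 0.125). Library 1 of XLF-/- clone 1, at 25.5%, lay within the Ligase4-/- range, and the other 5 XLF-/- libraries lay at or below 21.5%.

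Deletions from the bait reached far in both mutants. Of the deletional joins in the bait window, 21.2% and 25.4% in Ligase4-/- clones 1 and 2 and 19.7% and 20.2% in XLF-/- clones 1 and 2 lay over 3 kb away, against 0.660% in WT and 1.53% and 2.03% in PAXX-/-. The XLF-/-PAXX-/- clones had 22.7% each. The genotype difference was 3.30 points (95% interval -0.311 to 6.99, exact permutation p = 0.0736, adjusted p = 0.288). It was 5.39 points without Ligase4-/- clone 1 and 1.21 points without Ligase4-/- clone 2.

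**Figure D5:**
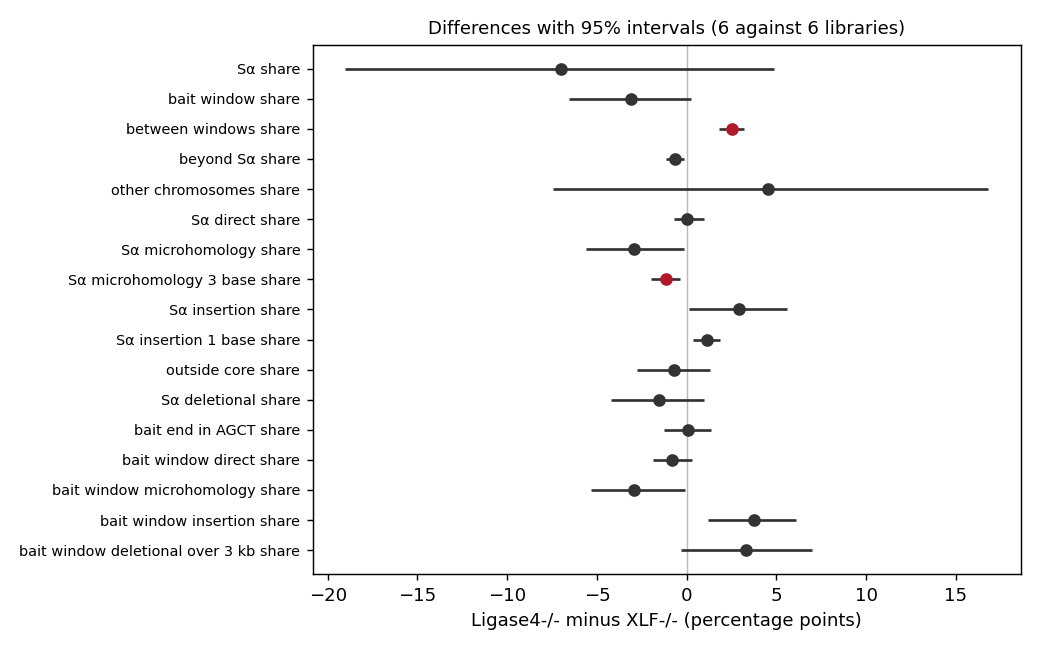
Differences between the genotype means, Ligase4-/- minus XLF-/-, in percentage points (horizontal axis), for 17 of the 48 measures; lines are 95% intervals from the exact permutation test over 6 against 6 libraries. Red points mark the measures whose libraries did not overlap, the share between the windows (2.51) and joins with 3 shared bases (-1.14).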

How the data were processed

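LAM-HTGTS libraries were sequenced on an Illumina MiSeq, per the labels' protocols, and aligned with Bowtie2 to mm9, per the submitters' processing notes. The authors deposited 1 table of junctions per clone, with positions, strands and read sequences, and a library column that names 3 libraries without a replicate number. Libraries are numbered here by name order. How duplicates and mapping were filtered was not stated in these sources.

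The overlap of a join is the bait's last read base minus the prey's first plus 1. Shares were computed per library and compared by an exact two-sided permutation test with Benjamini-Hochberg adjustment, and 95% intervals came from inverting the test. Positions needed 20 junctions in the 12 libraries, microhomology sequences 50, and rebuilt bases 5 reads. Intervals cover the spread between libraries. Joins were named by rules on position and recurrence. The comparison and its measures were chosen with earlier results of these data known. Python 3.11.15, numpy 2.4.6, pandas 2.3.3, scipy 1.17.1 and matplotlib 3.10.9 were used.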

Additional observations from a re-analysis of the deposited data

Results flagged for a closer look

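Of 116 groups of 6 libraries tested, 8 held a library set apart from the other 5 by Dixon's criterion, where chance gives about 1 in 20. Library 2 of Ligase4-/- clone 2 was lowest for joins past Sα (1.22%), highest for direct joins at Sα (8.20%) and lowest for the direct share of inversional minus deletional Sα joins (-4.04 points). Library 1 of Ligase4-/- clone 2 was highest for microhomology (90%) and lowest for insertions (8.0%) in the 20 kb region, on 100 junctions. Library 1 of XLF-/- clone 1 was lowest for microhomology (67.8%) and highest for insertions (25.5%) in the bait window. Library 1 of XLF-/- clone 2 was highest for bait-window deletions over 3 kb (23.0%). The causes were not tested.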

How the results depend on the processing

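Of 492 alternative values over 22 results, 467 counted as unchanged. For tested differences this meant the same direction and the same side of the threshold. For clone means of pooled junctions, which were not tested, it meant a shift below the larger SD of the genotypes. For counts of positions, bins or windows that passed, it meant a change within a fixed factor. The share between the windows stayed higher in Ligase4-/- under every alternative run (exact permutation test, adjusted p from 0.0519 to 0.514), and none of the 18 measures recomputed came to pass after adjustment. Leaving out prey positions where most Sα joins are insertions, an alternative chosen after seeing the data, turned no sign. The difference in direct Sα joins, near 0, turned with a 10 kb Sα window (-0.0294 points) and on the log odds scale (-0.00523). With insertions left out of the denominator, bait-window microhomology turned to 0.573 points. The excess of microhomology length outside the core turned to -0.0332 bases with bait ends before position 56 and to -0.00136 before position 65, the last chosen after seeing the data. Leaving out 1 library or 1 clone at a time gave these ranges of the difference, in points: Sα share -16.1 to 2.04, other chromosomes -4.2 to 13.2, direct Sα joins -0.364 to 0.292, joins outside the core -1.45 to 0.00648, deletional Sα joins -3.27 to 0.152, and bait ends in AGCT -0.263 to 0.482. For the window with the largest difference between the windows the range was 1.44 to 1.82 points. It no longer passed without Ligase4-/- clone 1 or either XLF-/- clone, where an exact permutation p cannot go below 0.0119. It still passed without Ligase4-/- clone 2, where the same limit holds. The number of windows that passed ran from 0 to 6. The causes were not tested.

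No paired analysis was possible because the library column gives no replicate number. The number of junctions limits precision most in the 20 kb region of XLF-/-, with 5 to 33 per library. The windows were taken from these data, and bins, positions and windows share libraries. With 2 clones per genotype and no shared run between genotypes, a difference of clones, of runs and of genotypes cannot be told apart.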

Other observations

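One Sα join was found in all 27 libraries of the series, the next most shared in 20. It lies at chr12:114498448, is deletional, and joins bait base 44 with 1 shared base. With the shared base counted to the bait, the bait goes on past the join with GTAAG. The prey is preceded by TTCCAG in reads of other joins that cross it. GT and AG are, as background, the usual first and last bases of an intron. The flanks are shown with the bases that the join leaves out in capitals.
bait, chr12:114664854-114664877, minus strand: gcaccgcaaatgGTAAGCCAGAGG
prey, chr12:114498436-114498459, minus strand: TTTATGTTCCAGagtctgcgagaa
In the 12 libraries compared it gave 12 junctions, 1 per library, of the 1703 to 6332 Sα junctions that each library held. Its origin was not tested.

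Junctions to other chromosomes carried long unaligned gaps at rates that split the Ligase4-/- clones. Gaps over 20 bases made up 11.5% of them in Ligase4-/- clone 1 and 33.9% in clone 2, against 18.6% in each XLF-/- clone and 24.2% in WT. The genotype difference was 4.10 points (95% interval -11.0 to 20.3, exact permutation p = 0.589). Clustered joins outside chromosome 12 also split them, mostly with the higher share in clone 1. The windows chr8:129110001-129120000 (1.1% and 0.17% in Ligase4-/- clones 1 and 2), chr6:70670001-70680000 (0.65% and 0.20%) and chr14:115440001-115450000 (0.52% and 0.17%) were of this kind. In the same order, XLF-/- clones 1 and 2 held 0.318% and 0.185%, 0.370% and 0.044%, and 0.528% and 0.103%. A split between clones in these windows was thus not particular to Ligase4-/-. Of the windows described, only the one on chromosome 1 below was higher in Ligase4-/- clone 2. The window chr8:125950001-125960000 took 1.91% of junctions to other chromosomes in Ligase4-/- clone 1 and 0.461% in clone 2, with 0.529% and 0.477% in the XLF-/- clones. The window chr1:20660001-20670000 took 0.471% in Ligase4-/- clone 1 and 1.24% in clone 2, with 0.254% and 0.299% in the XLF-/- clones.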
